A study of Mus musculus and Acomys cahirinus with 18 samples.

Results

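The early response of the mouse kidney to a blocked ureter was described from all 3915 genes that the authors list for kidneys 2 days after unilateral ureteral obstruction (UUO) against sham kidneys, of 13545 entries in the 4 comparison tables of the series. Total RNA of whole kidneys was sequenced from 3 mice of the UUO day 2 group and 3 of the sham group, all wild-type male C57BL/6J animals. The left ureter was tied in the UUO group, kidneys were flushed with saline and frozen, and RNA was extracted with Trizol and a column. The UUO day 2 mice were 10.1 weeks old, and the sham mice were 14.0, 7.0 and 9.4 weeks old, so within this comparison age varied in the sham group only. Values are the authors' log2 fold changes of UUO day 2 over sham, with a mean expression (logCPM, on the log2 scale) and a false discovery rate (FDR), and a gene is called listed, risen or fallen where that FDR is under 0.05. The sources used here give neither read totals nor values of single libraries, so the depth of each library is unknown. The spread between mice enters only through the FDR, an adjusted p-value that does not itself measure this spread. Absence from the table has several possible reasons: no change, a wide spread between mice, or a gene left untested.

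When a ureter is closed, urine pressure climbs in the collecting system and stretches the tubules. Tubule cells lose their transport work, take on injury and repair programmes, and many enter the cell cycle, while blood leukocytes enter the tissue and interstitial fibroblasts begin to lay down matrix. The model is widely used for kidney fibrosis because the obstructed kidney scars within days. In whole kidney RNA fewer cells of a type and less RNA per cell cannot be told apart.

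Of the 3915 genes 2282 rose, which is 58.3% of the table, and 1633 fell, which is 41.7%. Large changes were mostly rises: 886 genes rose and 424 fell by at least 2 on the log2 scale, and 72 rose and 14 fell by at least 5. The median rise was 1.70 and the median fall -1.46. The smallest change listed was 0.73, so smaller shifts are not described here. Risen genes had a median logCPM of 3.37 and fallen genes one of 4.46. The share that rose was 69.9% at a logCPM of 1 to 3 and 69.6% at 3 to 5, but 39.0% at 7 to 9 and 38.9% at 9 or more. The most abundant transcripts of the kidney were thus listed more often as fallen than as risen.

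**Figure D1:**
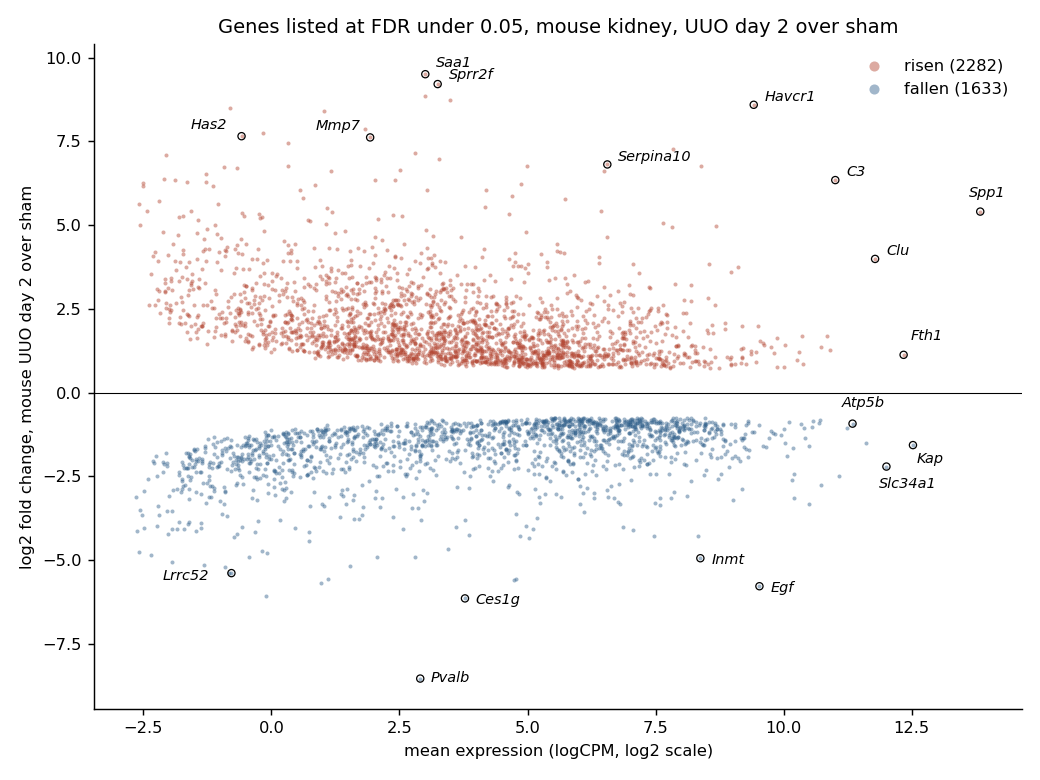
Log2 fold change of mouse UUO day 2 over sham (vertical axis) against mean expression (logCPM, horizontal axis, log2 scale) for the 3915 listed genes, 1 point a gene. Risen genes are red and fallen genes blue. The band around 0 is empty because genes over the FDR threshold are not in the table, and Saa1 at 9.51 and Pvalb at -8.54 mark the ends.

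At the top of the authors' deposited table stood the serum amyloid gene Saa1 at 9.51, a 729-fold difference, followed by Sprr2f, a small proline-rich protein of the cornified envelope of skin, at 9.21. Beyond the injury marker Havcr1, the 10 highest log2 fold changes of genes with standard symbols took in, as given by the authors' deposited table, Saa2 at 7.77, the hyaluronan synthase gene Has2 at 7.66 and Serpina7, which encodes a thyroxine carrier of plasma, at 7.46. Saa2 and Has2 were rare transcripts there, with a logCPM of -0.16 and -0.58 in the authors' deposited table. At the other end Pvalb, a calcium buffer of the distal convoluted tubule, had a 372-fold lower level in the authors' deposited table (-8.54, FDR 9.8e-08). The 10 steepest falls in the authors' deposited table also held Nccrp1 at -5.55, the potassium channel subunit gene Lrrc52 at -5.39, the neural catenin gene Ctnna2 at -5.38, the methyltransferase gene Inmt at -4.94 and the tenascin gene Tnn at -4.92.

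The smallest FDR did not belong to the genes of highest fold change. In the authors' deposited table it was that of Serpina10, an inhibitor of clotting factor Xa, at 6.81 (FDR 5e-11, logCPM 6.56). The next were Spp1, Krt20 and Clu, and the 10 lowest in the authors' deposited table also took in Tlr2 at 4.18, the mitochondrial ATP and phosphate carrier gene Slc25a24 at 2.87, the metalloprotease gene Adamts1 at 3.22, the leukocyte adhesion receptor gene Icam1 at 2.94 and Arg2 at 3.91, each with an FDR of 1.9e-08. Among abundant transcripts the ferritin gene Fth1 rose by 1.13 at a logCPM of 12.34 and Tmem176b by 1.26 at 10.91 in the authors' deposited table. Those of highest expression that fell included Kap, an androgen-regulated gene of the proximal tubule, at -1.57 with a logCPM of 12.52, and the phosphate carrier gene Slc34a1 and the ATP synthase gene Atp5b at -2.21 and -0.93 in the authors' deposited table. The entries nearest to the threshold included Pabpc1 at 0.74 and Map3k8 at 0.97 in the authors' deposited table.

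The genes are described below by 58 lists of pathways and cell types, which hold 1872 genes. Of these 856 were listed, 560 risen and 296 fallen. The lists were chosen with earlier results of these data known, so their counts describe the table and are set beside its 58.3% risen without a test. That share varied with expression, as given above, and so did the lists. The median logCPM was 3.04 for listed mitosis genes and 8.37 for listed genes of glucose synthesis and the citric acid cycle. No list was compared with genes of like expression. A ratio such as 19 to 2 counts listed members only.

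Transcripts of epithelial structural proteins were among the rises. All 12 listed genes of keratins and the cornified envelope rose, with 21 of 33 not listed and a median of 3.17. Keratins build intermediate filaments, and the resting tubule uses few of them. The squamous gene Krt17 stood at 4.32, the envelope precursor gene Ivl at 3.82, Sprr1a at 3.52 and the 14-3-3 protein gene Sfn at 2.82 in the authors' deposited table. The simple epithelial keratin genes Krt18, Krt19 and Krt8 rose by 2.59, 2.42 and 1.77 in the authors' deposited table, and Krt8 was abundant, with a logCPM of 8.62. Of the claudins and junction proteins 8 rose, 1 fell and 21 were not listed. Claudins seal the space between cells and set which ions pass. Cldn14, which restricts calcium passage in the thick ascending limb, stood at 5.51, Cldn4 at 3.12 and the P-cadherin gene Cdh3 at 2.61 in the authors' deposited table, while Cldn10 fell by 1.02. The main epithelial cadherin genes Cdh1 and Cdh16 were not listed.

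The cytoskeleton moved in a single direction, with 30 of 44 genes listed and all 30 risen (median 1.62). The tubulin genes Tubb3 and Tubb2b rose by 3.44 and 2.91, the actin crosslinker gene Actn1 by 2.52, the filamin gene Flnc by 2.28 and the intermediate filament gene Vim by 2.22 in the authors' deposited table. Smaller rises included Actb, which encodes the common actin that is often used as a constant control, at 0.98 (FDR 0.01) in the authors' deposited table. S100 proteins and annexins, small calcium-binding proteins, rose 15 to 2. S100a9 stood at 3.98, Anxa3 at 3.33 and S100a6 at 2.30 in the authors' deposited table, while S100g, the calbindin of calcium-absorbing epithelia, fell by 3.14 and Anxa13 by 1.90. Among adhesion receptors 13 rose and 1 fell: Vcam1, which binds leukocyte integrins, by 4.96, the hyaluronan receptor gene Cd44 by 4.44, and Ceacam1 at -0.88, per the authors' deposited table. Of the integrins and laminins 11 rose, 1 fell and 22 were not listed. The leukocyte integrin genes Itgam, Itgax and Itgb2 led the list at 3.11, 2.24 and 2.16 in the authors' deposited table, beside the fibronectin receptor gene Itga5 at 1.70. The laminin gene Lamc3 fell by 1.75 in the authors' deposited table.

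Growth factor ligands of the EGF receptor family moved in opposite directions. Egf itself, which the distal tubule makes in bulk, fell 55.0-fold in the authors' deposited table, with a logCPM of 9.53. The 4 other listed ligands rose: Areg by 5.38, Ereg by 2.66, Nrg1 by 2.31 and Hbegf by 1.57 in the authors' deposited table. Ereg was rare, with a logCPM of -1.85 (FDR 0.037) in the authors' deposited table. The receptor genes Egfr, Erbb2, Erbb3 and Erbb4 were not listed.

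Of the interleukin-6 and STAT3 list 13 genes rose, 1 fell and 9 were not listed (median 3.26). Cytokines of this family signal through gp130 and the transcription factor STAT3. Among the ligands Lif stood at 6.24 (FDR 3e-06), Clcf1 at 3.84, Il11 at 3.27, Il6 at 3.26 and Osm at 2.61 in the authors' deposited table. Il6 and Osm were rare, with a logCPM of -1.30 and -1.99, against 4.87 for Lif in the authors' deposited table. Among receptors the oncostatin receptor gene Osmr rose by 3.35 and the interleukin-11 receptor gene Il11ra1 fell by 0.82, per the authors' deposited table, and the shared subunit gene Il6st was not listed. Downstream, Stat3 rose by 1.75 and the feedback inhibitor gene Socs3 by 5.43 (FDR 3.4e-07), with Socs2 at 2.30 and Socs1 at 1.58 in the authors' deposited table. Acute phase genes, many of which STAT3 drives in liver, rose 18 to 1 (median 4.16), and a link to STAT3 here was not tested. The protease inhibitor gene Serpina3n rose by 5.53, Saa3 by 4.81, A2m by 4.45, Orm2 by 4.29 and Lrg1 by 4.19 in the authors' deposited table. Saa3 and Orm2 were rare, with a logCPM of -0.15 and -1.22 in the authors' deposited table. Itih2, an inter-alpha-trypsin inhibitor chain, fell by 3.13 beside rises of Itih3 by 1.81 and Itih1 by 0.91 in the authors' deposited table. Serpina3 genes are near-identical copies in mouse, so values of single copies such as Serpina3m (6.18) and Serpina3h (4.14) in the authors' deposited table are uncertain.

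Interleukin-1 and NF-kappaB genes followed the same direction. The interleukin-1 family rose 11 to 1, with Il1f6, an interleukin-36 of epithelia, at 8.86, the receptor antagonist gene Il1rn at 6.97, the decoy receptor gene Il1r2 at 2.54, the alarmin gene Il33 at 2.31 and Il1b at 2.02 in the authors' deposited table. Il1f9, another interleukin-36, fell by 1.47 in the authors' deposited table, and Il1a and Il18 were not listed. Of the NF-kappaB genes 18 rose and 1 fell. Relb and Nfkb2, the subunits of the slower noncanonical arm, stood at 3.25 and 2.70, and Rela and Nfkb1 of the canonical arm at 1.43 each in the authors' deposited table. Several feedback genes rose as well, Nfkbiz at 3.04 and the inhibitors Nfkbie at 2.25, Tnfaip3 at 1.77 and Nfkbia at 1.44 in the authors' deposited table. The inhibitors Nfkbib, Tnip1 and Cyld were not listed. Tnfaip8, a cell death regulator, fell by 2.07 in the authors' deposited table. The TNF superfamily rose 21 to 2, with 27 of 50 not listed. Its ligand genes Tnfsf11 (5.02, FDR 0.042) and Tnf (3.43) and its receptor genes Tnfrsf9 (4.32) and Tnfrsf12a, the TWEAK receptor (3.84), led in the authors' deposited table. Tnfsf11 was rare, with a logCPM of -2.55 in the authors' deposited table. The ligand gene Tnfsf10, also called TRAIL, fell by 1.19 and Tnfrsf19 by 2.27 in the authors' deposited table.

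Sensors and effectors of cell death were among the rises too. Of the sensors, pyroptosis and necroptosis genes 17 rose and 2 fell. Tlr2 and its co-receptor gene Cd14 stood at 4.18 and 4.04 and the inflammasome sensor gene Nlrp3 at 2.71 in the authors' deposited table. The pyroptosis genes Casp4, Casp1 and Gsdmd stood at 1.97, 1.82 and 1.63 in the authors' deposited table, and the key member Pycard was not listed. The necroptosis kinase gene Ripk3 and the pore gene Mlkl rose by 2.98 and 2.76 in the authors' deposited table. Nlrp6 and Nod2 fell by 2.03 and 1.29 in the authors' deposited table. All 11 listed apoptosis genes rose, whether they promote death or block it, and 20 of 31 were not listed. The BH3-only death genes Bbc3 and Pmaip1 rose by 2.14 and 2.01 and Bax by 0.89, and on the survival side Bcl2a1d rose by 3.74 and Mcl1 by 0.95 in the authors' deposited table. The Bcl2a1 copies are nearly identical, so their separate values are uncertain, and Bcl2 was not listed. Among p53 targets and growth arrest genes 11 rose, 1 fell and 22 were not listed. Gdf15 rose by 3.30, the cell cycle inhibitor gene Cdkn1a by 2.5, Btg2 by 1.98 and Trp53 itself by 1.36 in the authors' deposited table, against Rrm2b at -0.93. Other high members, Ckap2 at 3.51, Cdkn3 at 3.29 and Psrc1 at 2.99 in the authors' deposited table, also act in cell division. Mdm2, Ccng1 and Sesn2, which p53 also drives, were not listed.

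The stress programmes did not all move. The list of the integrated stress and unfolded protein response had 18 rises and 1 fall, with 28 of 47 not listed. Known targets of ATF4, a factor that answers amino acid shortage, were among the rises: the glutathione-degrading enzyme gene Chac1 at 3.69, the pseudokinase gene Trib3 at 3.58, the folate enzyme gene Mthfd2 at 2.67, asparagine synthetase Asns at 2.56, the cystine carrier gene Slc7a11 at 2.04 and Atf4 at 1.28, per the authors' deposited table. The serine and folate enzyme gene Shmt2 was the fall, at -1.55 in the authors' deposited table, and other ATF4 targets, Slc3a2, Psph, Cebpg and the tRNA synthetase genes Aars, Gars, Sars and Wars, were not listed. Of the chaperone branch of the endoplasmic reticulum Sdf2l1 was listed at 0.99 in the authors' deposited table, while Hspa5, Xbp1, Dnajb9, Herpud1, Pdia4 and Hsp90b1 were not listed. Ddit3, which encodes CHOP, was not listed either. The heat shock list was split 4 to 4, with 23 of 31 not listed. The small heat shock genes Hspb1 and Hspb8 rose by 3.25 and 2.58 and Cryab by 1.40, and the chaperone genes Dnaja4, Hsph1 and Hspd1 fell by 1.15, 0.98 and 0.96, as did the small heat shock gene Hspb7 by 0.99, in the authors' deposited table. Hspa1a, Hspa1b and Hsf1 were not listed. Of 25 targets of the antioxidant factor NRF2 only 6 were listed. The heme-degrading enzyme gene Hmox1 stood at 2.11 and Srxn1 at 1.0 in the authors' deposited table, and Nqo1, Gclc, Gclm and Txnrd1 were not listed.

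Hypoxia and vascular growth genes fell 7 to 1, with 24 of 32 not listed. They take in targets of the oxygen-sensing factor HIF and the VEGF axis. Car9, a carbonic anhydrase that hypoxia usually induces, fell by 2.17, Angpt2 by 1.55, Pdk1 by 1.24, the VEGF receptor gene Kdr by 1.16 and Vegfa by 1.02 in the authors' deposited table. The prolyl hydroxylase gene P4ha2 rose by 0.91 in the authors' deposited table. Egln3, Adm and Hif1a were not listed. Iron and zinc genes rose 8 to 3, with 21 of 32 not listed. The heme binder gene Hpx rose by 4.16, ceruloplasmin Cp by 3.85, the metal reductase gene Steap1 by 2.71 and metallothionein Mt2 by 2.07, against Mt3 at -3.25 in the authors' deposited table. Hpx and Mt3 were rare, with a logCPM of -0.64 and -1.01 in the authors' deposited table.

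Myeloid receptors rose 34 to 1 (median 2.22). The lectin genes Clec4e and Clec4d, which sense dead cells and fungi, led at 7.10 and 4.75, followed by the scavenger receptor gene Msr1 at 4.23, the chemokine receptor gene Ccr1 at 4.23 and Trem1 at 4.09 in the authors' deposited table. Clec4e, Clec4d and Trem1 were rare, with a logCPM of -2.05, -1.05 and -0.91 in the authors' deposited table. Complement and signalling partners were also up, C5ar1 at 3.93, Tyrobp at 2.45 and Fcer1g at 2.03 in the authors' deposited table, while the endothelial lectin gene Clec14a fell by 1.03. The macrophage receptor gene Csf1r was not listed. All 21 listed genes of antigen presentation rose, with a median of 1.5. The class II loading genes H2-DMb2 and H2-DMa stood at 3.90 and 2.72, the class II activator gene Ciita at 1.83, the invariant chain gene Cd74 at 1.54 and the class I genes H2-K1 and H2-D1 at 1.15 and 1.07 in the authors' deposited table. Among lysosome genes 11 rose, 3 fell and 27 were not listed. Gpnmb led at 3.27, followed by Cstb at 2.07, Ctss at 1.90 and Ctsd at 1.71, with Ctsf at -0.97 in the authors' deposited table. The lysosomal membrane genes Lamp1 and Lamp2 and the regulator Tfeb were not listed.

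**Figure D2:**
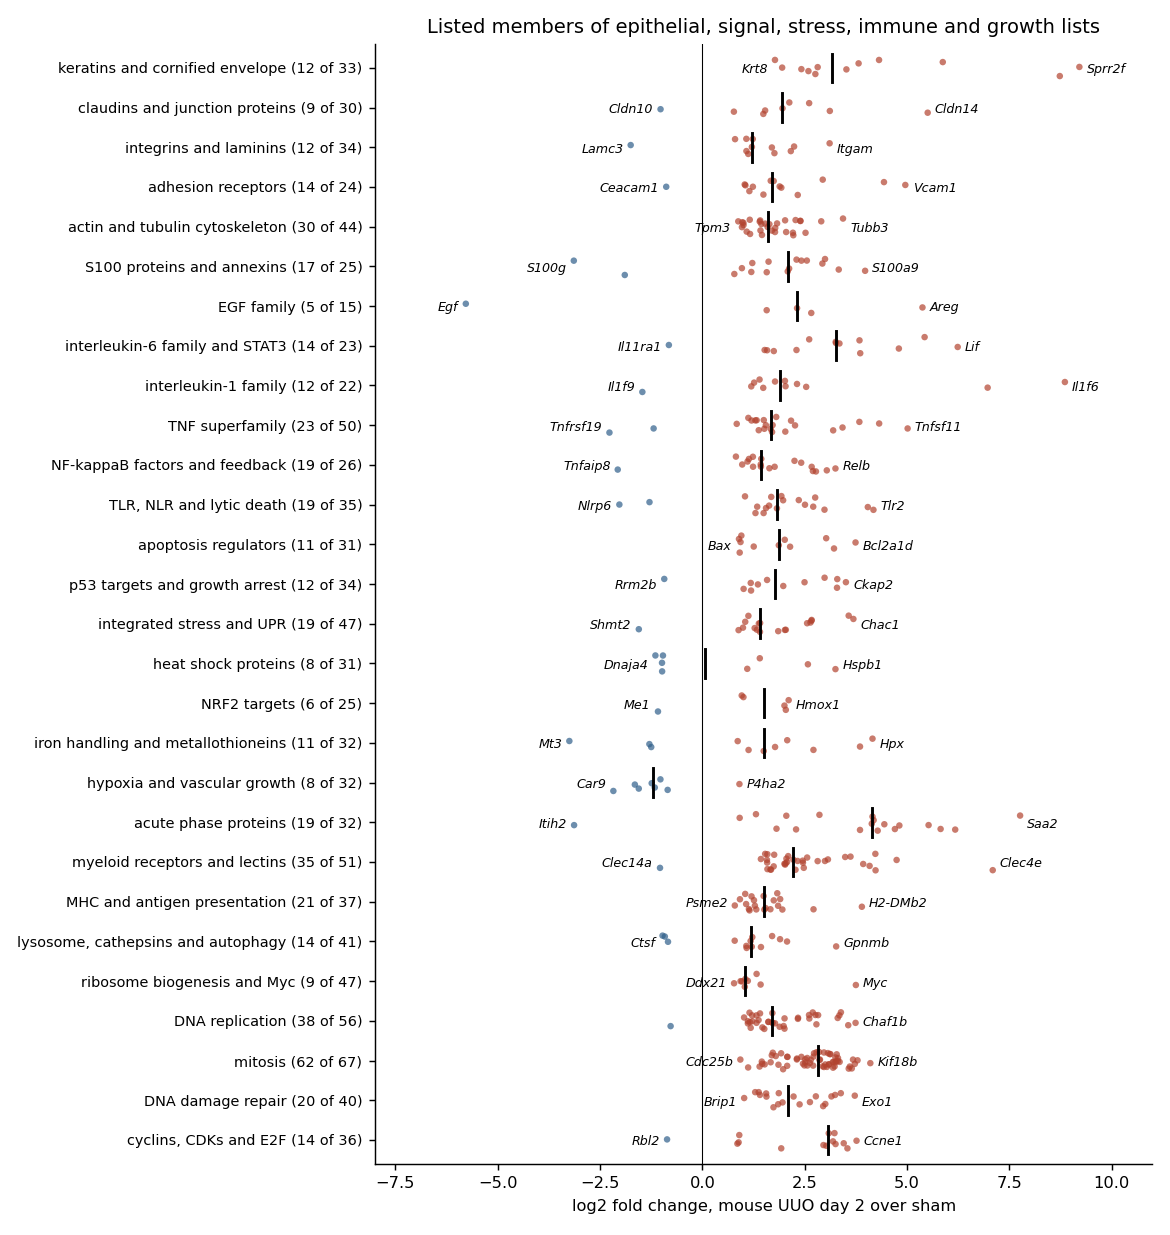
Log2 fold change of mouse UUO day 2 over sham for each listed member of the epithelial, signal, stress, immune and growth lists, 1 point a gene. Red points rose and blue points fell, black bars are list medians, the number listed of all members stands beside each name, and the highest and lowest members of most lists are named. Mitosis genes lie between 0.93 and 4.11 with no fall, hypoxia genes have 7 falls, and heat shock genes are split 4 to 4.

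Growth genes formed the most complete block. Of 67 mitosis genes 62 were listed and all 62 rose (median 2.82, range 0.93 to 4.11). Kif18b, a kinesin that trims spindle microtubules, stood at 4.11 (FDR 2.3e-06), the kinetochore genes Nuf2 and Ndc80 at 3.79 and 3.73, topoisomerase Top2a at 3.31, the mitotic kinase gene Cdk1 at 3.27 and its transcription factor gene Foxm1 at 3.23 in the authors' deposited table. The smallest rises were those of the phosphatase gene Cdc25b at 0.93 and the condensin gene Smc4 at 1.12 in the authors' deposited table. DNA replication genes rose 37 to 1 with a lower median, 1.71. The histone chaperone gene Chaf1b led at 3.74, Uhrf1, which copies DNA methylation, stood at 3.57, the licensing gene Cdc6 at 3.31 and the helicase genes Mcm5 and Mcm2 at 2.83 and 1.51 in the authors' deposited table. The sliding clamp gene Pcna, a common marker of dividing cells, rose by 1.11 in the authors' deposited table. All 20 listed DNA repair genes rose, those of homologous recombination among them, with Exo1 at 3.73 and Brca1 at 2.95 in the authors' deposited table, while Atm, Atr and Xrcc1 were not listed.

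Cyclins, their kinases and E2F factors rose 13 to 1, with 22 of 36 not listed. The S phase and mitotic cyclin genes Ccne1, Ccna2 and Ccnb1 stood at 3.77, 3.23 and 3.19, and E2f8 and E2f7, which repress E2F targets late in S phase, at 3.45 and 3.03 in the authors' deposited table. The retinoblastoma relative gene Rbl2, a marker of resting cells, fell by 0.86 in the authors' deposited table. The G1 cyclin genes Ccnd1, Ccnd2 and Ccnd3 were not listed. Myc rose by 3.75 (FDR 2.5e-06) in the authors' deposited table, yet only 9 of 47 genes of ribosome biogenesis and the Myc network were listed. Those 9 all rose, and apart from Myc they lay between 0.77 (Ddx21) and 1.42 (Nop58) in the authors' deposited table.

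Promoters of these genes were read for short motifs of known regulators. RefSeq promoters of build GRCm38.p6, from 250 bases before to 50 after the start, were matched by Entrez ID for 3022 of the 3915 genes, and the 2422 genes with a single promoter were used. The following promoters are shown because they belong to the steepest rise, the steepest fall and the highest mitosis gene among those with a motif and a single promoter. Chaf1b was added, chosen after its values were seen, for the motif of DNA replication genes. Sequences run 5′ to 3′ along the gene, with capitals for every match to any of the 11 motifs searched.
Sprr2f, chr3:92364937-92365236, plus strand: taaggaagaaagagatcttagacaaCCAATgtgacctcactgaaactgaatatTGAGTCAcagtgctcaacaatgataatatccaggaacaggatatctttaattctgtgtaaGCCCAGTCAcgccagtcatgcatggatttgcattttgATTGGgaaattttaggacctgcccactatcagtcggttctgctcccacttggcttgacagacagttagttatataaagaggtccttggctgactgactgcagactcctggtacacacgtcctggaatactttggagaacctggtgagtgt
Ces1g, chr8:93337160-93337459, minus strand: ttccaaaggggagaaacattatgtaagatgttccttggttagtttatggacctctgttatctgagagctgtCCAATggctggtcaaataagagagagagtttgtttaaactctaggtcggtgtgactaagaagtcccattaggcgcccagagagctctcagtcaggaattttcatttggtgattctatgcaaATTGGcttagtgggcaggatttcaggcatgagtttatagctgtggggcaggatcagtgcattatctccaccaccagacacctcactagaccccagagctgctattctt
Kif18b, chr11:102925075-102925374, minus strand: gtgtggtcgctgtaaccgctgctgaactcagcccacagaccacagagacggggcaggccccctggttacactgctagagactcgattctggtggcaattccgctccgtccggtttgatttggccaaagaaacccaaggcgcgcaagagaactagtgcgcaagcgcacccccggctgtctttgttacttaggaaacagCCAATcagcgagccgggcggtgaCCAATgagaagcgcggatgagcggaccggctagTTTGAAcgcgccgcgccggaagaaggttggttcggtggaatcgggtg
Chaf1b, chr16:93883651-93883950, plus strand: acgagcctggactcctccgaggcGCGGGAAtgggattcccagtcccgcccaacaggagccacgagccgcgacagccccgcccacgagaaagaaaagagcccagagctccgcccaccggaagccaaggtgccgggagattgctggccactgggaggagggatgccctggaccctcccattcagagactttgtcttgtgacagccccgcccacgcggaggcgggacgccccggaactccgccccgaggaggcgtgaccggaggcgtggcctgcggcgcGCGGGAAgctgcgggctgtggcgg

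In the Sprr2f window (9.21 in the authors' deposited table) the capitals mark an AP-1 motif, TGANTCA, from position -197 relative to the start, a pair of CCAAT boxes and the antioxidant motif TGACNNNGC. The Ces1g window (-6.14 in the authors' deposited table) holds CCAAT boxes only. The Kif18b window has CCAAT boxes from positions -53 and -30 and the cell cycle homology region (CHR), TTTGAA, at base 4 of the transcript. The CHR is read by the complexes that hold mitotic genes silent in resting cells and drive them in dividing ones. The Chaf1b window holds the E2F motif, TTCCCGC, on the opposite strand at positions -227 and 27.

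The shares of promoters with each motif differed most for the growth lists. CHR was in 70.0% of 50 mitosis promoters, 15.4% of 26 DNA replication promoters and 18.5% of all 22862 genes with a single promoter. E2F was in 12.0% of mitosis promoters, 13 of 26 DNA replication promoters and 4.60% of all. With only the 250 bases before the start, CHR was in 18 of 50 mitosis promoters, and E2F in 8 of 26 DNA replication and 3 of 50 mitosis promoters. CCAAT was in 72.0% and 65.4% of these lists and in 38.2% of all. Over the whole table E2F was in 9.17% of risen and 5.27% of fallen promoters, and the cyclic AMP motif TGACGTCA in 3.18% of risen, 1.39% of fallen and 1.85% of all. AP-1 was in 8.26% of risen, 5.97% of fallen and 7.98% of all promoters, and the STAT motif TTCCNGGAA in 1.55%, 0.896% and 1.17%. Of the 14 promoters of listed acute phase genes 0 held the STAT motif. A motif in 1.17% of all promoters would seldom occur among 14, so this count says nothing on a link to STAT3. The HNF4 motif CAAAGTCCA was in 0.796% of fallen, 0.917% of risen and 0.486% of all promoters, which is 8 fallen and 13 risen ones. It was in 4 of 268 promoters of genes fallen by at least 2 and 1 of 94 of genes risen by at least 4. Of fallen genes of the tubule and metabolism lists 3 of 152 held it, and these small counts were not tested. The gene of that factor, Hnf4a, was not listed. Also searched, with shares of 3.58% and 7.12% in all promoters, were the interferon-stimulated response element and the E box CACGTG. The antioxidant motif was in 12.3% and the ATF4 motif TGATGCAA in 0.954% of all promoters. All motifs were searched on both strands. An AP-1 motif of the form TGACTCA followed by GC, on either strand, also counts as the antioxidant motif. A match describes letters in this window and not a bound site.

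**Figure D3:**
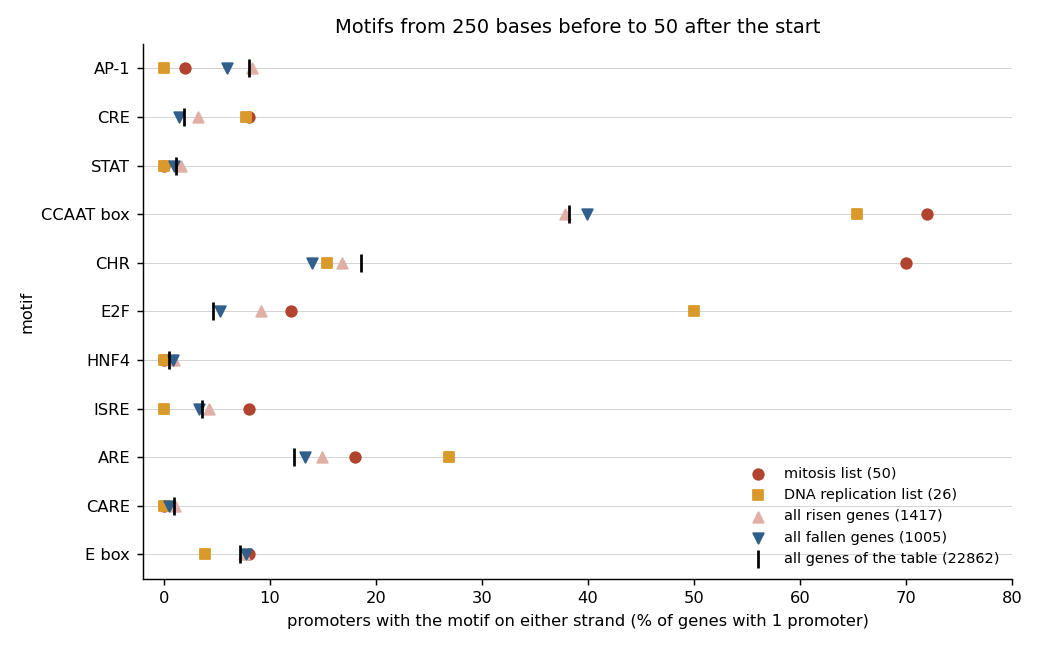
Share of promoters that hold each of 11 motifs on either strand (horizontal axis, % of genes with a single promoter) for the mitosis and DNA replication lists, all risen genes, all fallen genes and all genes of the promoter table. CHR stands at 70.0% in the mitosis list against 18.5% in all genes, and E2F in 13 of 26 promoters of the DNA replication list against 4.60%.

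Paracrine signals of fibrosis were mixed. All 8 listed YAP targets rose, with 16 of 24 not listed. Ankrd1, a stretch-responsive gene of muscle, rose by 4.04, Cyr61 by 3.58 and Wisp1 by 2.04 in the authors' deposited table. The TGF-beta, activin and BMP list rose 14 to 3, with 33 of 50 not listed. The activin chains Inhba and Inhbb stood at 3.14 and 2.84, the procollagen protease gene Bmp1 at 1.86, Tgfb3 at 1.33 and Tgfb2 at 1.05 in the authors' deposited table. The BMP antagonist gene Sostdc1 fell by 0.90 in the authors' deposited table, and Bmp7, Smad3 and Smad7 were not listed. Notch and hedgehog genes rose 5 to 2, with 19 of 26 not listed. The hedgehog effector gene Gli1 stood at 2.11 and Ihh at 1.89, against the ligand-binding inhibitor gene Hhip at -2.75 in the authors' deposited table. Insulin-like growth factor genes went the other way, 5 fallen and 1 risen, with 13 of 19 not listed. The binding protein genes Igfbp2, Igfbp1 and Igfbp5 fell by 3.12, 2.47 and 1.46 and the substrate gene Irs1 by 1.44, and the RNA-binding protein gene Igf2bp2 rose by 1.57 in the authors' deposited table. Of the FGF, PDGF and HGF genes 11 rose, 5 fell and 25 were not listed. The starvation hormone gene Fgf21 stood at 3.89 (FDR 0.028), Csf1, which feeds macrophages, at 2.82, and Pdgfb with its receptor gene Pdgfrb at 2.45 and 1.20 in the authors' deposited table, while the epithelial ligand genes Fgf9 and Fgf1 fell by 1.21 and 0.88.

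Vasoactive systems were split by gene. Endothelin Edn1, a constrictor, rose by 3.32 (FDR 1.6e-07), and the bradykinin receptor genes Bdkrb1 and Bdkrb2 by 2.99 and 2.85 in the authors' deposited table. The kallikrein gene Klk1, which makes the ligand of those receptors, fell by 3.22, the peptidase genes Anpep, Ace and Mme by 1.36, 1.01 and 0.96, and angiotensinogen Agt rose by 0.98 in the authors' deposited table. Renin Ren1 and the angiotensin receptor gene Agtr1a were not listed. Among prostaglandin genes the inducible cyclooxygenase gene Ptgs2 rose by 2.43 and the receptor gene Ptger4 by 2.23, and the receptor gene Ptger3 fell by 1.55 in the authors' deposited table. Coagulation and fibrinolysis genes rose 10 to 6. The fibrinogen chain gene Fgg (6.76), the urokinase receptor gene Plaur (3.80) and tissue factor F3 (1.95) were up in the authors' deposited table. The plasminogen gene Plg, the antithrombin gene Serpinc1 and the prekallikrein gene Klkb1 fell by 3.52, 2.97 and 2.33 in the authors' deposited table.

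Of the transport genes that were listed most fell, and in each list many members were not listed. Organic ion and drug transporters, which clear drugs and waste in the proximal tubule, fell 19 to 2 (median -1.56), with 20 of 41 not listed. Lowest among the members of that list were Slc22a22, Slco1a1 and Slc22a28 at -3.63, -3.12 and -3.0 in the authors' deposited table. Nearer to the median were the anion exchanger gene Slc22a6, known as OAT1, at -1.72 and the urate carrier gene Slc22a12 at -1.36 in the authors' deposited table. Slc22a7, an organic anion carrier outside the list, was lower still at -4.11, and Slc22a8, also outside it, stood at -3.15 in the authors' deposited table. The exceptions were the efflux pump genes Abcc3 and Abca1, at 1.85 and 1.70 in the authors' deposited table. Slc22 members lie in clusters of close copies, so the split between neighbours is uncertain. Of the amino acid, peptide and monocarboxylate carriers 17 fell, 5 rose and 23 were not listed. The neutral amino acid carrier gene Slc6a19 fell by 1.95, the betaine carrier gene Slc6a12 by 2.95 and the monocarboxylate carrier gene Slc16a7 by 3.0, while Slc16a3, which exports lactate, rose by 2.06 and Slc38a2 by 1.81 in the authors' deposited table.

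Ion, phosphate and glucose carriers fell 20 to 6, with 16 of 42 not listed. The lowest was Slc12a1, the sodium-potassium-chloride carrier of the thick limb, at -2.86, then the glucose carrier gene Slc2a4 at -2.49 and the fructose carrier gene Slc2a5 at -2.29 in the authors' deposited table. The carriers of other segments were down as well, Slc12a3 of the distal convoluted tubule at -2.03, the phosphate carrier gene Slc34a3 at -2.14 and the glucose carrier gene Slc5a2 of the early proximal tubule at -1.6 in the authors' deposited table. Slc34a2, the phosphate carrier of lung and gut, rose by 4.16 (logCPM 5.70), and the widely used phosphate carrier gene Slc20a1 by 1.92 in the authors' deposited table. Channels and aquaporins fell 17 to 3, with 17 of 37 not listed: Calb1, the calcium shuttle of the distal tubule, by 4.29, the ubiquitin ligase adaptor gene Klhl3 by 2.63, Aqp3 by 1.58, the sodium channel gene Scnn1a by 1.35 and Aqp1 by 1.17 in the authors' deposited table. The calcium channel gene Trpv6 and the potassium channel gene Kcnn4 rose by 2.73 and 2.68 in the authors' deposited table, and Aqp2 of the collecting duct was not listed. Genes of acid secretion and intercalated cells fell 13 to 1, with 9 of 23 not listed. Slc4a1, the anion exchanger of acid-secreting cells, stood at -4.35, carbonic anhydrase Car14 at -3.29, the insulin receptor relative gene Insrr at -2.75, the ammonia carrier gene Rhbg at -2.42 and the proton pump gene Atp6v1b1 at -1.68 in the authors' deposited table. Car13 alone rose, by 3.09 in the authors' deposited table.

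The transcription factor list was the most evenly divided of the tubule lists, 9 risen and 13 fallen, with 32 of 54 not listed. Factors that rose were Runx1 at 3.51, the acute phase factor gene Cebpd at 3.43, Klf6 at 2.52, Sox4 at 2.25 and Elf3 at 1.81 in the authors' deposited table. Factors that fell included the fatty acid sensor gene Ppara at -1.45, its coactivator gene Ppargc1a at -1.05, Klf15 at -1.72, Esrrb at -1.69, the vitamin D receptor gene Vdr at -1.07 and the mineralocorticoid receptor gene Nr3c2 at -1.08 in the authors' deposited table.

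Metabolism of amino acids was the most complete fall. Of 61 genes of amino acid catabolism 44 were listed, 43 fallen and 1 risen (median -1.54). The tyrosine enzyme gene Hpd fell by 4.26, per the authors' deposited table, and the methyl group and creatine enzyme genes Bhmt and Gatm by 3.34 and 2.46. Ass1, by which the kidney makes arginine, fell by 2.76, Miox, which opens inositol, by 3.15, and Bckdhb of branched-chain breakdown by 2.03 in the authors' deposited table. The exception was Arg2, mitochondrial arginase, at 3.91 (FDR 1.9e-08) in the authors' deposited table. Glucose synthesis and citric acid cycle genes fell 19 to 2. Enzymes of glucose release were down, G6pc by 3.34, Pck1 by 2.42, Fbp1 by 1.94 and Pcx by 1.69, and the cycle gene Ogdh by 0.86 in the authors' deposited table. Hexokinase Hk2, which starts glucose breakdown, rose by 3.08 and mitochondrial Pck2, an ATF4 target, by 1.45 in the authors' deposited table.

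Of the detoxifying enzymes that were listed most fell. Cytochrome P450 genes fell 18 to 3 and 26 of 47 were not listed, with Cyp2d9, Cyp4b1 and Cyp2d26 at -3.33, -3.31 and -3.14 and Cyp2e1 at -1.95, against the neutrophil enzyme gene Cyp4f18 at 2.34 and Cyp1b1 at 1.12, per the authors' deposited table. Of the conjugation enzymes, esterases and aldehyde dehydrogenases 27 fell, 4 rose and 36 were not listed. The esterase genes Ces1d and Ces1e stood at -4.02 and -3.97, and the steroid enzyme gene Akr1c21 at -2.57 in the authors' deposited table. Aldh1a2, which makes retinoic acid, rose by 4.22 (FDR 7.3e-07) and the glutathione transferase gene Gsta1 by 3.29 in the authors' deposited table. Cyp2d, Ces1 and Gsta genes are close copies and their separate values are uncertain. Sterol and fatty acid synthesis genes fell 13 to 1, with 30 of 44 not listed. The lipoprotein lipase gene Lpl fell by 2.64, Acacb by 2.05 and Idi1 by 1.72, while the lipid droplet gene Plin2 rose by 1.24 in the authors' deposited table. Fasn was not listed. Clock genes fell 7 to 3, with 12 of 22 not listed. The output factors Hlf, Dbp and Tef fell by 2.34, 1.75 and 1.6 and Nr1d1 by 1.28, with Nfil3, which opposes the output factors, up by 2.21 in the authors' deposited table. The core clock genes Arntl and Clock were not listed, and the sources used here give no hour of tissue collection.

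**Figure D4:**
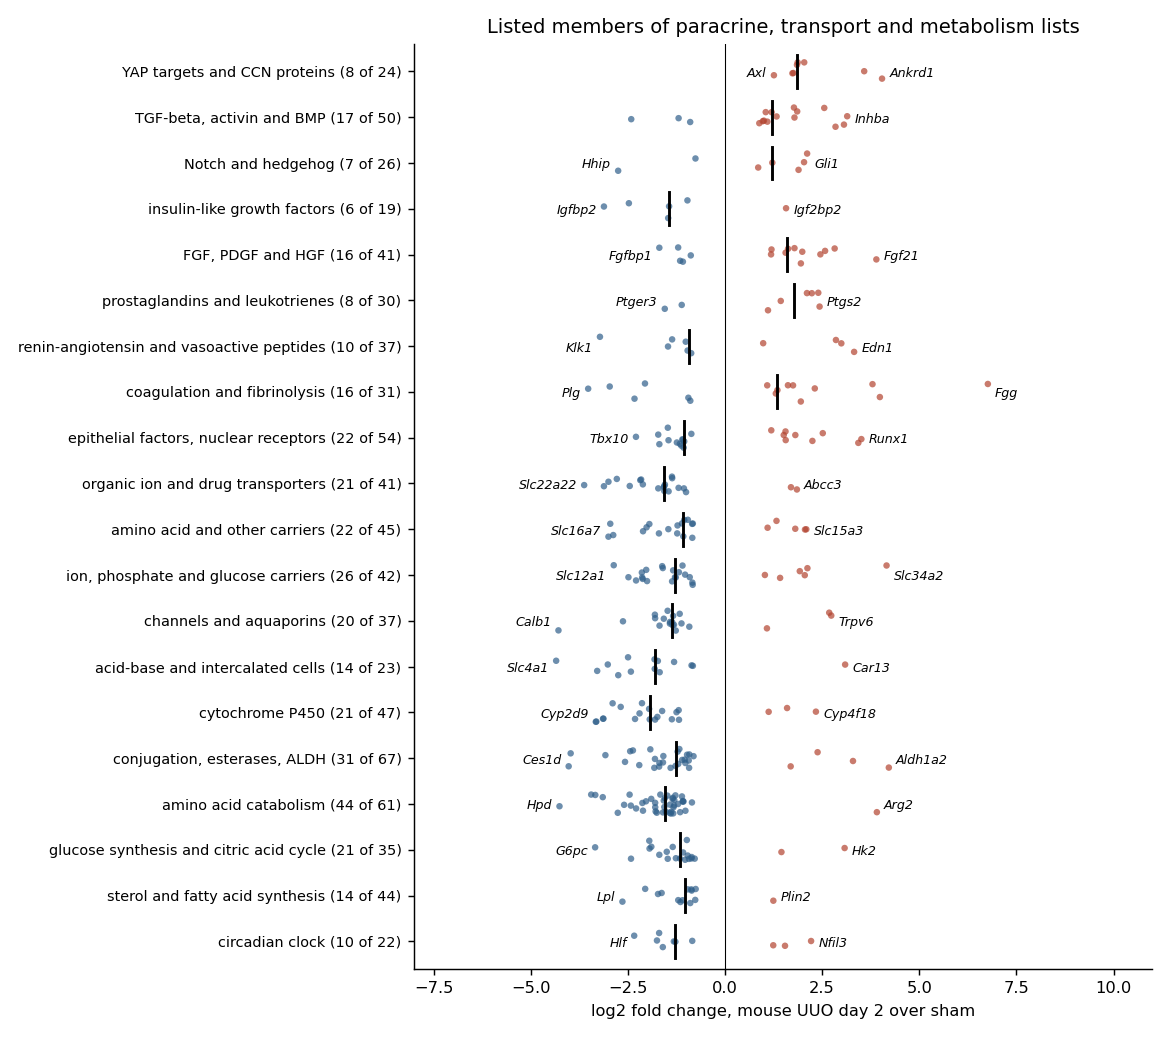
Log2 fold change of mouse UUO day 2 over sham for each listed member of the paracrine, transport and metabolism lists, 1 point a gene. Red points rose and blue points fell, black bars are list medians, and the highest and lowest members of most lists are named. Amino acid catabolism has 43 falls and the single rise of Arg2 at 3.91, and Klk1 (-3.22) and Edn1 (3.32) stand at opposite ends of the vasoactive list.

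Markers of other cells were mostly not listed. Of 12 podocyte markers only Cd2ap was listed (1.0), and of 17 endothelial markers Plat (1.09) and Kdr (-1.16) in the authors' deposited table. Pecam1, which marks all endothelium, was not listed. Of 18 T and NK cell markers 4 rose, Klrd1, Lck, Cd5 and Cd3d, at 1.5 to 2.14 in the authors' deposited table, and of 10 B and plasma cell markers only Tnfrsf13b was listed, at 1.55. Of 16 neutrophil and mast cell markers 5 rose and 11 were not listed. Lcn2, also a marker of tubule injury, rose by 7.29, S100a9 by 3.98, S100a8 by 2.93, Mmp9 by 2.81 and Csf3r by 2.01 in the authors' deposited table. Lcn2 had a logCPM of 7.84, against -0.29 for S100a9, -0.61 for S100a8, 1.37 for Mmp9 and 2.41 for Csf3r in the authors' deposited table. Cxcr2, Retnlg, Mmp8 and the granule genes Mpo, Elane, Ngp and Camp were not listed. Of 9 mural and mesangial markers Mcam, Pdgfrb and Cspg4 rose by 1.49, 1.20 and 1.06 in the authors' deposited table. Of 10 erythroid markers Epb42 rose by 2.36 and Slc4a1, which intercalated cells share, fell by 4.35 in the authors' deposited table. The hemoglobin genes and all 10 adrenal markers were not listed. Of 8 urothelial markers the uroplakin genes Upk3b, Upk3a and Upk1a fell by 1.92, 1.84 and 1.72 and the basal keratin gene Krt5 rose by 1.95 in the authors' deposited table, and 4 were not listed, Upk1b and Upk2 among them. The brown fat genes Ucp1 and Cidea fell by 5.56 and 4.05 in the authors' deposited table, and Adipoq, Fabp4 and Plin1 were not listed. The part of attached tissue in these falls was not tested.

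Gene class divided the table further. RefSeq gave a class to 3888 of the 3915 genes. Of 3436 protein coding genes 62.4% rose, and of 407 long noncoding RNA genes 25.8% rose and 302 fell. The noncoding genes were rarer, with a median logCPM of 0.26 against 4.16. At matched expression the shares still differed: 27.1% against 66.3% risen at a logCPM below 1, 23.2% against 77.2% at 1 to 3, 24.2% against 71.7% at 3 to 5 and 23.1% against 47.5% at 5 or more. The class was compared after the values had been seen, and the sources used here do not say whether the counting used strand, so reads of overlapping antisense genes cannot be told apart. Among noncoding genes that rose were the snoRNA host genes Snhg5, Snhg1, Snhg6 and Gas5, at 1.72, 1.64, 1.27 and 0.82 in the authors' deposited table, and Lockd, next to Cdkn1b, at 2.32. Both groups are labelled male. The 4 listed genes of the Y chromosome rose, Gm21704 by 6.76, Gm21677 by 5.27, Rbmy by 4.29 and Gm33272 by 1.82 in the authors' deposited table. Gm21677 and Rbmy were rare, with a logCPM of -1.72 and -1.29 in the authors' deposited table. Rbmy and Gm33272 lay near the threshold, with an FDR of 0.037 and 0.042 in the authors' deposited table. Y-linked copies of this kind are nearly identical, so their separate values are uncertain. Miat and Airn, an antisense RNA of Igf2r, fell by 2.79 and 1.58 in the authors' deposited table.

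**Figure D5:**
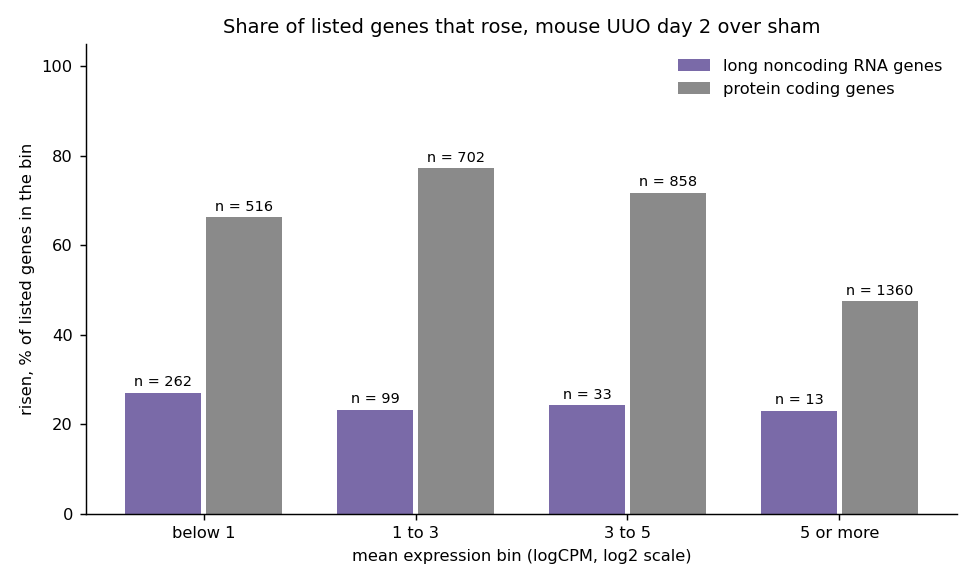
Share of listed genes that rose (vertical axis, %) for long noncoding RNA genes (left bars) and protein coding genes (right bars) in bins of mean expression (logCPM, horizontal axis). Numbers above bars count the listed genes, and the noncoding share lies between 23.1% and 27.1% in every bin while the coding share lies between 47.5% and 77.2%.

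The day 5 comparison used the same 3 sham libraries, so its values stand beside those of day 2 as context only. Its mice were 10.1, 10.1 and 14.0 weeks old. On day 2 and day 5 the authors' deposited tables gave 3.69 and 1.66 for Chac1, 3.58 and 2.53 for Trib3, 4.11 and 3.41 for Kif18b, 1.05 and 3.0 for H2-Aa, 1.66 and 4.00 for the macrophage mannose receptor gene Mrc1 and -4.26 and -3.57 for Hpd. Saa2, Trem1, Chil3, Hmox1, Fth1 and Atf4 were listed on day 2 and not on day 5. These were chosen after their values were seen, and the difference was not tested. The spiny mice, Acomys, were 10.3, 10.3 and 14.3 weeks old in the UUO day 2 group and 14.3, 9.9 and 10.1 weeks old in the sham group. In Acomys, against its own sham group, the authors' deposited table of day 2 gave Serpina10 at 6.03, Lif at 4.72 and G6pc at -2.54. Of the 3915 mouse genes 729 were listed there, which is 18.6% of the mouse genes and 65.0% of the 1121 Acomys genes with a single locus per mouse ID. Of these 685 were risen in both, 17 fallen in both and 27 in opposite directions. The share risen among the Acomys genes and the number of genes tested in both species are not given here, so these counts do not measure agreement between species.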

How the data were processed

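Whole kidney RNA of 3 mouse UUO day 2 and 3 mouse sham libraries was used, of 18 libraries in the series. Salmon, edgeR and the build mm9 are named in the submitters' processing notes, with no versions or roles. The authors deposited 1 table a comparison, with the log2 fold change, a mean expression as logCPM, which is also a log2 value, and an FDR, an adjusted p-value. The files do not state the log base, which was read as log2 because edgeR writes it so. All entries had an FDR under 0.05. No model was refitted: genes were counted by the authors' deposited FDR and sign, with no SE available.

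The members and the 58 gene lists were chosen with earlier results of these data known. Named genes were the 3 highest and 3 lowest listed members of each list, its key members, and, among standard symbols, the 10 highest, 10 lowest and 10 of lowest FDR, with the 5 most expressed in each direction. Many further list members fall outside this rule and were chosen after their values were seen, to show a role within a list (Il6, Tnf, Rela, Nfkb1, Trp53, Bbc3, Mcm5, Tgfb3, Vdr and others), as were the noncoding RNAs. RefSeq promoters and gene classes were joined by Entrez ID, and no coordinate was converted between GRCm38.p6 and mm9. Tables were read with Python 3.11.15 and pandas 2.3.3. Counting was tested on made-up tables. Alternatives were FDR thresholds of 0.01 and 0.001, a log2 fold change of at least 1, a logCPM of at least 0, standard symbols only, and promoters of 250 bases. Some genes and 1 promoter motif are not reported here.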

Additional observations from a re-analysis of the deposited data

How the results depend on the processing

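At an FDR under 0.001, 1203 genes rose and 733 fell, with 62.1% risen. The share risen was 60.3% at an FDR under 0.01, 60.1% with a log2 fold change of at least 1 and 62.2% among standard symbols. Over all list members it was 69.7% at an FDR under 0.001. At that threshold 4 lists turned: the EGF family median was -1.73 with 2 genes left, the vasoactive median 0.75 with 4, the transcription factors had 53.8% risen and a median of 1.51 with 13, and the clock genes 60% risen and a median of 1.24 with 5. Fewer genes were left in each of these lists, and why they turned was not tested. Without turning, the share risen left its interval in 14 lists at that threshold, 11 at an FDR under 0.01 and 7 at a log2 fold change of at least 1. CHR was in 36% of mitosis promoters with only the 250 bases before the start, and E2F in 30.8% of DNA replication promoters. No paired analysis was possible because the tables hold no values of single libraries. Leaving out each replicate was not run for the same reason, so whether 1 library decides a value was not tested. Depth is unknown, and rare genes with a logCPM below 0 carry fold changes that rest on few reads.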

Other observations

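Several gene families held values not described above, from gene name stems chosen after the values were seen. Of 17 listed genes whose symbols start with Rps or Rpl 16 rose, led by Rpl12 at 1.38 and Rps20 at 1.04, while the muscle form Rpl3l fell by 1.69 in the authors' deposited table. The 4 listed snoRNA genes rose. The gene Arhgap36 stood at 6.04 (FDR 1.6e-07) and the zinc finger gene Zfp469 at 4.87 in the authors' deposited table. Cytochrome oxidase genes, with symbols that start with Cox, had 7 listed members, 7 of them fallen, and a median of -1.02. Per the authors' deposited table the steepest falls were Cox8b at -4.16 (FDR 0.047), Cox7a1 at -2.24 and Cox6a2 at -1.85. Cox8b and Cox6a2 had a low logCPM, -0.32 and 0.32. Falls were smallest for Cox5b, Cox7a2 and Cox7b, with values of -0.77, -0.82 and -0.85. The source of these falls was not tested. Histone genes were split in the authors' deposited table, with Hist1h2ao at 4.15 and Hist1h4h at -1.08, and their close copies make single values uncertain.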
